A study of Homo sapiens with 6 samples.

Results

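The Mediator subunits, the general transcription factors and the subunits of RNA polymerase II were followed in ARPE-19 cells, an immortal line of human retinal pigment epithelium, before and after an oxidative exposure. Genes were taken by symbol. The set holds the MED and TAF genes whose symbol is a number alone or a number and L (TAF4B and TAF9B fall outside and are given with the partners), TBP, the GTF2A, GTF2B, GTF2E, GTF2F and GTF2H genes, and POLR2A to POLR2M, provided that a probe set of the array (a group of short probes read as 1 value) carries that symbol alone. It has 69 of the 18132 genes so measured, on 182 probe sets. Each gene is given by its brightest probe set, and 64 of the 69 lay above the detection floor used for testing, as did 12221 genes in all. Both groups have 3 arrays, all labelled as 48 h after transfection. The 0 h cells were left without enzyme, and the 3 h cells received glucose oxidase at 10 mU/ml, an enzyme that releases hydrogen peroxide as it oxidises glucose. Protocol and design text give a GFP plasmid to both groups, whereas the sample descriptions give the 3 h cells a GFP construct carrying satellite alpha, so that treatment and construct cannot be told apart. The labels list no group held for the same time without enzyme, and nothing in the labels places the replicates in separate cultures, so p-values measure the spread between arrays, which may be technical.

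These proteins form the machinery that starts transcription of protein-coding genes. TFIID, made of the TATA-binding protein TBP and its associated factors (TAFs), marks the promoter, TFIIA and TFIIB steady it there, TFIIF escorts the polymerase, TFIIE calls in TFIIH, and TFIIH opens the DNA and phosphorylates the long tail (CTD) of the largest polymerase subunit. Mediator carries signals from DNA-bound activators to that assembly. Its head and middle modules touch the polymerase, MED14 is the backbone, the tail receives activators, and a detachable kinase module regulates its contact with the polymerase.

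Of the 64 members tested, 14 rose and 27 fell after the exposure (limma, adjusted p below 0.05 over all genes tested), and 23 were not called. The called share was 64.1%, where 51.3% of all genes tested were called. The share of members that rose was 21.9%, close to the 20.6% of all genes, and the share that fell was 42.2%, against 30.8%. Every change below is a log2 difference, 3 h less 0 h. The median over the tested members was -0.12, and that over all genes tested was -0.04. Increases ran from 0.14 to 0.98 and decreases from -0.80 to -0.20. The groups did not overlap for 48 members, 15 higher and 33 lower on every 3 h array, where 60.5% of all genes were separated, 24.8% higher and 35.7% lower. Calls of at least 1.5-fold were made for 10 members, where 9.03% of all genes were called at that size: POLR2A, MED22 and MED15 rose, and MED21, TBP, MED13, MED31, GTF2H5, MED30 and MED7 fell. In bulk RNA of this kind, fewer cells and less RNA per cell cannot be told apart, and values normalised to a common distribution show no change of total RNA.

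MED6, MED25, TAF9, TAF1L, GTF2A1L and GTF2H2 have no probe set of their symbol alone and are not among the members. Counts and medians by family follow. Of the 9 GTF2 genes tested, 7 fell and 1 rose, with a median of -0.42. Of the 27 Mediator genes tested, 11 fell and 8 rose, with a median of -0.15. That balance depends on the probe set. With the second brightest, 4 fell and 10 rose, where genes with only 1 probe set kept it. Leaving aside shared and cross-hybridizing probe sets, 9 fell and 9 rose. Of the 16 TFIID genes and relatives tested, 5 fell and 3 rose, with a median of 0.01 that changed sign under other scalings (-0.012 after quantile normalization and -0.030 after median centring). Of the 12 polymerase II subunits tested, 4 fell and 2 rose, with a median of -0.09. The called share was 88.9% for GTF2, 70.4% for Mediator, 50% for TFIID and relatives and 50% for the polymerase subunits. Of all genes tested, 51.3% were called, 20.6% higher and 30.8% lower. The TFIID and polymerase families were thus near the share of all genes.

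**Figure D1:**
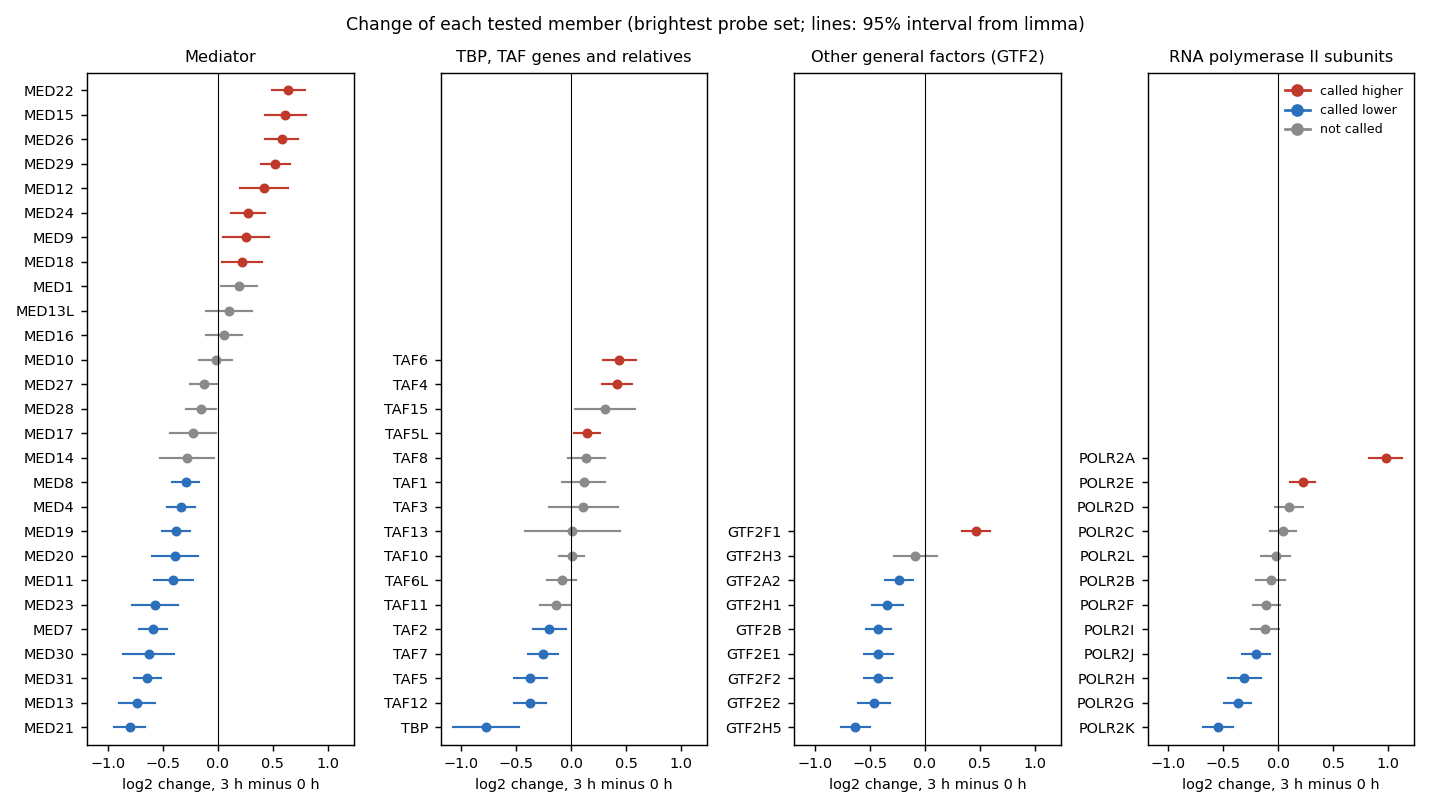
Log2 change (3 h minus 0 h, horizontal axis) of each of the 64 tested members, grouped by complex, with lines for the 95% confidence interval of the limma fit and colour for the call. POLR2A lies farthest to the right at 0.98 and MED21 farthest to the left at -0.80, and 7 of the 9 GTF2 genes were called lower.

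A few facts of the whole series bear on these values. The arrays correlated at 0.997 to 0.998 within the 0 h group, at 0.996 to 0.997 within the 3 h group and at 0.979 to 0.983 between the groups. The median SD of a gene was 0.06 at 0 h and 0.09 at 3 h. Spiked-in control RNAs moved with the groups: all 24 probe sets of the poly-A spikes were lower on every 3 h array (median -0.60), as were 17 of the 18 of the hybridization spikes (median -0.31). For actin, the 5′ probe set less the 3′ probe set, a log2 measure of how complete the labelled transcripts are, went from -2.06 ± 0.07 to -1.20 ± 0.06 (SD, n = 3; two-sided exact permutation p = 0.1, the smallest that 3 against 3 can give). The part of these controls in the members' changes was not tested. Of the genes listed as markers of the pigment epithelium, not all of them particular to it, RPE65 and RLBP1 were under the floor in both groups and 7 of 9 were tested. KRT8 (0.40), KRT18 (0.34), MITF (0.33) and OTX2 (0.19) rose, SERPINF1 (-0.40) fell, and BEST1 (0.18) and TYR (-0.06) were not called. BEST1 and TYR read 4.63 and 5.31 at 0 h, beside a floor of 4.64. The leucocyte gene PTPRC was under the floor, and the other blood and endothelial markers, CD3E, HBB, PECAM1 and VWF, lay a little above it, at 5.0 to 5.94 at 0 h and 5.10 to 5.90 at 3 h, without a call. Of the 4 photoreceptor and neuron markers, 3 were tested and 2 were called lower, PDE6B (-0.36) and SYT1 (-0.22), with mean levels of the 3 at 6.02 to 6.42 at 0 h and 5.66 to 6.25 at 3 h. The part of these markers in the members' changes was not tested.

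The promoters of 6 members are printed here, because these genes include the largest increase (POLR2A), the TFIIF partners that moved oppositely (GTF2F1 and GTF2F2), the TATA-binding protein itself, and a Mediator gene of each direction (MED15 rose, MED7 fell). Each is the 250 bases before the annotated start of transcription, 5′ to 3′ on the gene's own strand, from RefSeq on GRCh38.p14. Capitals mark matches to the motifs described further on.
POLR2A, chr17:7484116-7484365, plus strand: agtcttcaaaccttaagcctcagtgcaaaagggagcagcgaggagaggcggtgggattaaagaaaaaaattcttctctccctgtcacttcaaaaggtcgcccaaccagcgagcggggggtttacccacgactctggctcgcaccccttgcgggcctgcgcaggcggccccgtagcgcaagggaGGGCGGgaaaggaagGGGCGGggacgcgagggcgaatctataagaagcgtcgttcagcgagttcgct
MED15, chr22:20507360-20507609, plus strand: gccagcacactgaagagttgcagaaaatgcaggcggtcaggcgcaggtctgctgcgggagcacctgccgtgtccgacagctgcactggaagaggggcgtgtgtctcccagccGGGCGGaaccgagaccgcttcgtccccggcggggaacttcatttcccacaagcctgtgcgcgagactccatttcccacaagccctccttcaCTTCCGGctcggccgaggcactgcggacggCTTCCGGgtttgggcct
GTF2F1, chr19:6393165-6393414, minus strand: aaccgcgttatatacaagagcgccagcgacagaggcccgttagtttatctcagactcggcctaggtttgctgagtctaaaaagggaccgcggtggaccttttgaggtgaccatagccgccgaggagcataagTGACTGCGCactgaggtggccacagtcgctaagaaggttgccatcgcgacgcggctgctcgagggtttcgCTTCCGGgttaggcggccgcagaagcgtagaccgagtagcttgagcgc
GTF2F2, chr13:45120260-45120509, plus strand: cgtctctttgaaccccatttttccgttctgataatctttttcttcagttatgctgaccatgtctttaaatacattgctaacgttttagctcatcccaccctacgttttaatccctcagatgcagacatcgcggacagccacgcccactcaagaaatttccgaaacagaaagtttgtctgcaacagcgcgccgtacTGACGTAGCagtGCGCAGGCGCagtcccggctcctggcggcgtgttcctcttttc
MED7, chr5:157142866-157143115, minus strand: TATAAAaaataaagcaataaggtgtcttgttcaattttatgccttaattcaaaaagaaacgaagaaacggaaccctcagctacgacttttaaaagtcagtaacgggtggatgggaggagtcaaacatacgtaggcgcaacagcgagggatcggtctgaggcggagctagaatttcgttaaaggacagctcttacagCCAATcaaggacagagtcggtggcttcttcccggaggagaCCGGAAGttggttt
TBP, chr6:170554119-170554368, plus strand: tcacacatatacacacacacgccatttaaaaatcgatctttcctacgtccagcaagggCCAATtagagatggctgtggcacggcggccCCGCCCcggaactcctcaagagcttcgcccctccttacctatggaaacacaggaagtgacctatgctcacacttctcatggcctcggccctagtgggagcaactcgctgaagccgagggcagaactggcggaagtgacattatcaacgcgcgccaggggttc

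Among the polymerase subunits, 1 increase exceeded every other change of the set. POLR2A encodes the largest subunit, which holds the catalytic centre and the CTD. It read 7.31, 7.15 and 7.21 on the 0 h arrays and 8.14, 8.29 and 8.19 on the 3 h arrays. The lowest 3 h value thus lay above the highest 0 h value by far more than the spread within either group, and the gene was 1.97-fold higher (log2 change 0.98 ± 0.07 SE, adjusted p = 2.91e-05). POLR2B, the second largest subunit and the other wall of the active site, stood at -0.07 and was not called (adjusted p = 0.336, 95% interval -0.20 to 0.06). The partners POLR2C (0.05), POLR2I (-0.12), POLR2F (-0.11), POLR2L (-0.02) and POLR2D (0.10) were not called either.

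POLR2K, a small subunit that polymerases I, II and III share, fell the most of the 12. It read 10.74, 10.65 and 10.81 at 0 h and 10.20, 10.21 and 10.14 at 3 h, a decrease of 1.46-fold (adjusted p = 0.000177). All its 3 h arrays were below all its 0 h arrays. POLR2G, part of the stalk where the nascent RNA leaves the enzyme, read 10.47, 10.46 and 10.47 at 0 h and 10.08, 10.17 and 10.05 at 3 h, a decrease of 1.29-fold (adjusted p = 0.000733). The groups were again apart, while its stalk partner POLR2D was not called. POLR2H, another shared subunit, changed by -0.31, and POLR2J, the assembly partner of POLR2C, by -0.20. The shared subunit POLR2E rose by 0.22. The call on POLR2J was lost without 0 h replicate 1 (-0.17). Both probe sets of POLR2J are of the cross-hybridizing type, so the gene had no value once such probe sets were left out. The probe set of POLR2M alone was under the floor, with mean log2 levels of 4.42 at 0 h and 4.58 at 3 h. It is of the cross-hybridizing type. The 6 probe sets annotated to POLR2M jointly with GCOM1 had mean levels of 7.30 to 8.75 and changes of -0.44 to -0.09, and 3 of them were lower on every 3 h array.

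In TFIID the DNA-binding subunit showed the largest change. TBP read 6.85, 6.75 and 6.81 at 0 h and 5.77, 6.36 and 5.95 at 3 h. Every 3 h array was below every 0 h array, but the 3 h arrays were widely spread (SD 0.30), so the decrease of 1.71-fold is one of the less precise (log2 change -0.77 ± 0.13 SE, adjusted p = 0.00145). TAF6, a histone-fold subunit, read 7.82, 7.82 and 7.89 at 0 h and 8.29, 8.38 and 8.18 at 3 h, an increase of 1.35-fold (adjusted p = 0.000781). TAF4, a scaffold subunit, read 5.87, 6.01 and 5.95 at 0 h and 6.40, 6.29 and 6.39 at 3 h, an increase of 1.34-fold (adjusted p = 0.000704). Both genes thus moved against TBP, with no overlap between their groups.

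Another 4 TAFs fell: TAF12 and TAF5 by 0.37 each, TAF7 by 0.26 and TAF2 by 0.20. TAF12 is the histone-fold partner of TAF4, so 1 gene of that pair rose and the other fell. The call on TAF2 was lost on leaving out 0 h replicate 1 or 2 or 3 h replicate 1 or 2 (-0.19 to -0.16). TAF1, the largest TAF (0.11), TAF3 (0.11), TAF8 (0.14), TAF10 (0.00), TAF11 (-0.14) and TAF13 (0.01) were not called. TAF13 was the noisiest of these, with 5.35, 5.75 and 6.22 on the 3 h arrays.

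The relatives outside TFIID were measured apart. TAF5L, a subunit of the SAGA coactivator, read 7.33, 7.38 and 7.34 at 0 h and 7.46, 7.54 and 7.49 at 3 h. The groups were separate and the gene was called higher by 0.14, but the call (adjusted p = 0.0462) was lost on leaving out any 0 h array or 3 h replicate 2 or 3 (0.12 to 0.16). TAF6L, also of SAGA, stood at -0.09, and the RNA-binding protein gene TAF15 at 0.30 (adjusted p = 0.0619). Without 3 h replicate 1, TAF15 was called at 0.40 and TAF11 at -0.18. TAF7L, a testis paralog of TAF7, was under the floor at 4.32 and 4.18.

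Of the 9 general factor genes tested, 7 fell, GTF2F1 rose and GTF2H3 was not called. GTF2B, the bridge between TBP and the polymerase, had the tightest arrays of the 64 members tested: 10.09, 10.08 and 10.09 at 0 h against 9.66, 9.67 and 9.66 at 3 h. That is a decrease of 1.34-fold (log2 change -0.42 ± 0.05 SE, adjusted p = 0.000239). GTF2A2, the small subunit of TFIIA, read 11.34, 11.26 and 11.32 at 0 h and 11.12, 11.01 and 11.09 at 3 h, a decrease of 1.18-fold (adjusted p = 0.00819). Its larger partner GTF2A1 was under the floor at 2.95 and 3.03.

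Both subunits of TFIIE fell. GTF2E2 read 8.77, 8.82 and 8.82 at 0 h and 8.36, 8.43 and 8.23 at 3 h, a decrease of 1.38-fold (adjusted p = 0.000544). GTF2E1 read 8.26, 8.34 and 8.21 at 0 h and 7.84, 7.81 and 7.89 at 3 h, a decrease of 1.34-fold (adjusted p = 0.000498). The partners thus moved alike in direction, and neither overlapped between the groups.

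The subunits of TFIIF moved in opposite directions. GTF2F1, the large subunit, read 8.06, 8.06 and 8.15 at 0 h and 8.60, 8.50 and 8.57 at 3 h, an increase of 1.38-fold (adjusted p = 0.000303). GTF2F2, the small subunit, read 10.07, 9.97 and 10.01 at 0 h and 9.58, 9.56 and 9.64 at 3 h, a decrease of 1.34-fold (adjusted p = 0.000392). Neither gene had an array of 1 group within the range of the other group. The 5 probe sets of GTF2F1 ran from 0.36 to 0.47, whereas the second probe set of GTF2F2 stood at -0.05.

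Of the TFIIH core, GTF2H5 (the smallest subunit, mutated in a form of trichothiodystrophy) read 10.03, 9.92 and 10.02 at 0 h and 9.32, 9.41 and 9.34 at 3 h. It was 1.55-fold lower (adjusted p = 9.15e-05), the largest decrease among the GTF2 genes. GTF2H1 read 9.47, 9.45 and 9.38 at 0 h and 9.0, 9.13 and 9.15 at 3 h, a decrease of 1.26-fold (adjusted p = 0.00196). GTF2H3 stood at -0.08 and was not called, and the probe set of GTF2H4 alone was under the floor at 2.29 and 2.35. The 2 probe sets annotated to GTF2H4 jointly with VARS2 had mean levels of 7.23 and 7.12 and changes of -0.17 and 0.19.

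**Figure D2:**
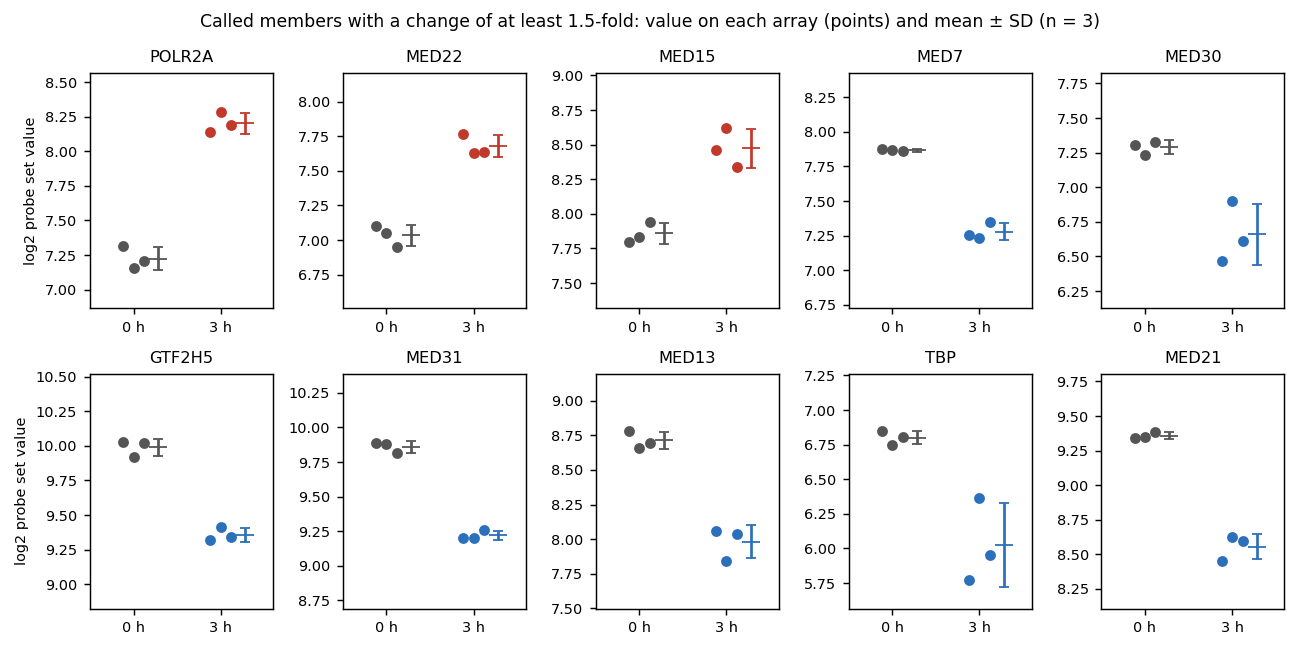
Log2 value (vertical axis) on each of the 6 arrays for the 10 members called with a change of at least 1.5-fold, with points for arrays and a bar for the group mean ± SD (n = 3). In every panel the 3 h arrays lie apart from the 0 h arrays, and the 3 h arrays of TBP are the most widely spread (SD 0.30).

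The Mediator head showed 2 increases and 3 decreases among 6 genes. MED22 read 7.10, 7.05 and 6.95 at 0 h and 7.77, 7.63 and 7.63 at 3 h, an increase of 1.56-fold (adjusted p = 0.000139). MED11, its direct partner in the head, read 7.65, 7.79 and 7.56 at 0 h and 7.15, 7.31 and 7.32 at 3 h, a decrease of 1.32-fold (adjusted p = 0.00268). These partners therefore moved oppositely, each with its groups apart.

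MED20 read 7.98, 8.04 and 8.04 at 0 h and 7.45, 7.83 and 7.60 at 3 h, a decrease of 1.31-fold (adjusted p = 0.00752), but its other probe set above the floor stood at 0.15. MED18, the partner of MED20, was called higher by 0.22 (adjusted p = 0.0466), with -0.15 on its second probe set. Neither direction was thus shared by the gene's other probe set. The MED18 call was also lost without any of the 0 h arrays or without 3 h replicate 3 (0.13 to 0.23). MED8 fell by 0.29, and MED17, the core of the head, stood at -0.23 without a call (adjusted p = 0.0699), but was called without 3 h replicate 2 (-0.30).

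The middle module held the largest decrease of the set. MED21 read 9.34, 9.35 and 9.38 at 0 h and 8.45, 8.62 and 8.60 at 3 h, a decrease of 1.74-fold (log2 change -0.80 ± 0.06 SE, adjusted p = 4.65e-05). MED31 read 9.89, 9.88 and 9.81 at 0 h and 9.20, 9.20 and 9.26 at 3 h, a decrease of 1.56-fold (adjusted p = 6.08e-05). MED7, which pairs with MED21 in a long hinge, read 7.88, 7.87 and 7.86 at 0 h and 7.25, 7.23 and 7.35 at 3 h, a decrease of 1.5-fold (adjusted p = 9.91e-05). None of the 3 genes had overlapping groups.

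MED19 (-0.38) and MED4 (-0.33) fell as well. MED26, a docking site for elongation factors, rose: it read 8.61, 8.62 and 8.60 at 0 h and 9.27, 9.24 and 9.06 at 3 h (log2 change 0.58, adjusted p = 0.000229). MED9 was called higher by 0.25, but its groups overlapped and the call was lost on leaving out 0 h replicate 2 or 3 or any 3 h array (0.19 to 0.28). MED10 (-0.02) was not called, nor was MED1, the subunit that binds nuclear receptors (0.19, adjusted p = 0.0524). MED1 was called at 0.26 without 3 h replicate 1. The backbone MED14 stood at -0.28 (adjusted p = 0.0571), with 3 h replicate 1 at 6.64 beside 6.29 and 6.21, and without that array it was called at -0.41.

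The tail module split by gene. MED15, a target of the SREBP and SMAD activators, read 7.80, 7.84 and 7.94 at 0 h and 8.46, 8.62 and 8.34 at 3 h, an increase of 1.53-fold (adjusted p = 0.000401). MED29 rose by 0.53 and MED24 by 0.27. MED30 read 7.30, 7.23 and 7.33 at 0 h and 6.47, 6.90 and 6.61 at 3 h, a decrease of 1.55-fold (adjusted p = 0.0012). Its 3 h arrays were spread (SD 0.22) but all below the 0 h arrays.

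MED23, a target of the MAP kinase-controlled factor ELK1, read 7.97, 8.0 and 7.84 at 0 h and 7.24, 7.29 and 7.56 at 3 h, a decrease of 1.48-fold (adjusted p = 0.00102). Both groups were again apart. MED16 (0.06), MED27 (-0.13) and MED28 (-0.15) were not called, although MED28 was called at -0.19 without 0 h replicate 3.

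The kinase module also moved both ways. MED13, the subunit that links the kinase to the core, read 8.78, 8.66 and 8.70 at 0 h and 8.06, 7.84 and 8.04 at 3 h, a decrease of 1.66-fold (adjusted p = 0.000125). MED12, the activator of the kinase, read 5.80, 5.58 and 5.58 at 0 h and 5.89, 6.18 and 6.16 at 3 h, an increase of 1.34-fold (adjusted p = 0.00577). The groups did not overlap for either gene, although MED12 left a narrow gap between them. MED13L stood at 0.10 and was called only without 3 h replicate 2 (0.22) among the fits that left out an array. MED12L was under the floor at 4.08 in both groups.

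Most of the members' other probe sets pointed the same way as the brightest. Among 42 members with at least 2 probe sets above the floor, 33 (78.6%) had all of them on 1 side of 0, as did 62.6% of the 7120 such genes in the whole table. Of the 24 called members with another probe set above the floor, 15 had another called in the same direction and 0 had one called in the opposite direction (limma over all probe sets above the floor; 0 also at an unadjusted p under 0.05). Another probe set of opposite sign was found for 3 of them, MED18 (-0.15), MED20 (0.15) and GTF2H1 (0.14). In the whole table, 3977 called genes had 2 or more probe sets above the floor, and 8.05% of these had another called in the opposite direction. The 4 probe sets of MED21 stood at -0.80, -0.63, -0.65 and -0.35. The 7 of MED15 ran from 0.34 to 0.95, and the 3 of POLR2A stood at 0.98, 1.52 and 0.44. For MED31 the second probe set stood at -0.09 beside -0.64, for MED23 at -0.23 beside -0.57, for MED8 at -0.14 beside -0.29, and for MED19 at 0.00 beside -0.38. These decreases lost their call on the second probe set. The second probe set of MED13 stood at -0.05 without a call, while its other 3 stood at -0.75 and -0.38, both called, and -0.26. The converse was seen for POLR2D, not called at 0.10 but at 0.57 on its second probe set, and for MED16, whose 8 probe sets ran from 0.06 to 0.69. Further members not called were called on another probe set: MED1 (0.29 and 0.52), MED13L (0.35), POLR2C (0.32), TAF15 (0.31), TAF8 (0.21), MED28 (-0.68), TAF11 (-0.44), POLR2F (-0.21) and POLR2L (-0.18). MED27 was called at 0.28 on its second probe set, against -0.13 on its brightest. For 17 called members only 1 probe set lay above the floor.

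Counting probe sets instead of genes changed the balance. Of the 161 member probe sets above the floor, 55 were called higher and 47 lower, 63.4% in all, where 51.7% of all probe sets were called, 25.6% higher and 26.1% lower. Among the 97 that were not the brightest of their gene, 43 were higher and 20 lower. Several increases came from genes with many probe sets, such as MED24 (0.27 to 0.58 over its probe sets) and TAF6 (0.19 to 0.46).

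**Figure D3:**
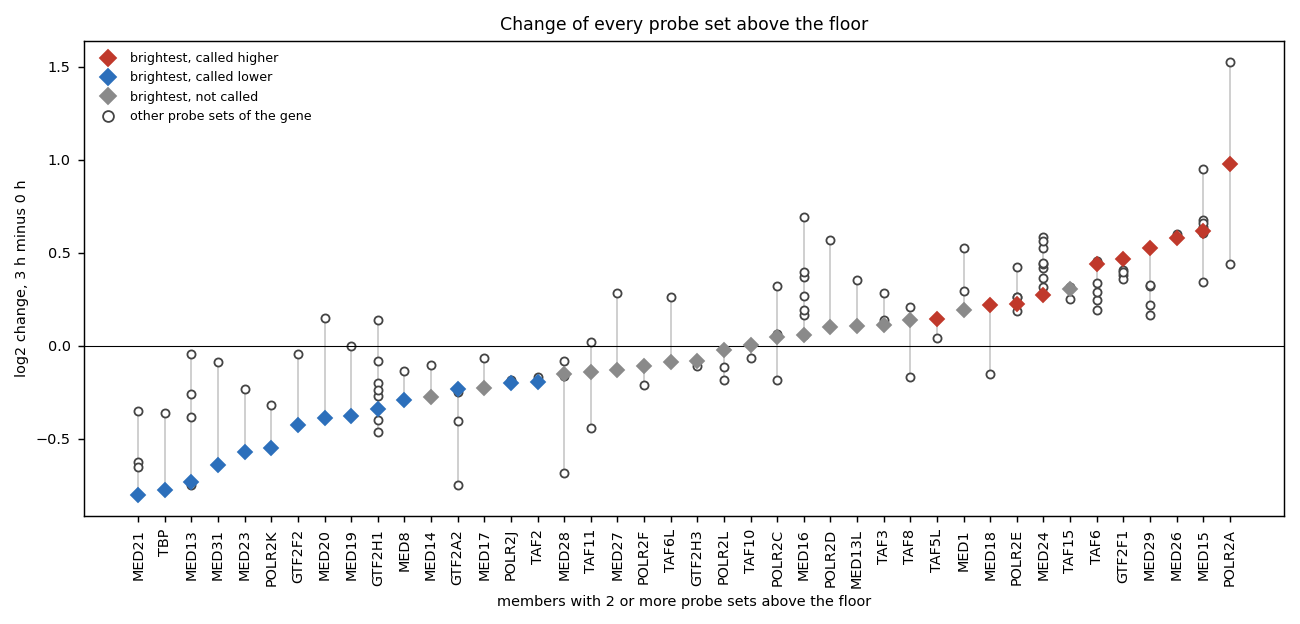
Log2 change (3 h minus 0 h) of every probe set above the floor for the members with at least 2 of them, 1 column per gene, with the brightest probe set as a diamond coloured by its call and the others as open circles. The sets of MED21 all lie below 0 (-0.80 to -0.35) and those of MED15 all above it (0.34 to 0.95), while MED20 has sets on both sides of 0 (-0.39 and 0.15).

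The partners of these complexes that carry other symbols were read from the same fit. Of 56 listed, 53 were tested, 15 rose and 19 fell (64.2% called, median -0.10). Over all genes tested 51.3% were called, 20.6% higher and 30.8% lower. Of the kinase that sits in the Mediator module, CDK8 (-0.36) and its cyclin CCNC (-0.34) fell, and CDK19 stood at -0.30 without a call (adjusted p = 0.082). Of 5 TFIIH kinase and helicase genes, 3 fell and 1 rose. The assembly factor MNAT1 changed by -0.59, the kinase CDK7 by -0.23, and the helicase gene ERCC2 by 0.31. Of 5 TBP regulators and TAF paralogs tested, 4 fell and 1 rose. The TBP relative TBPL1 changed by -0.59, DR1 (a repressor that binds TBP) by -0.40, and BTAF1, which removes TBP from DNA, by -0.41.

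Further along the cycle, 28 of 30 pausing and elongation genes were tested, of which 8 rose and 5 fell. The called share was 46.4%, below the 51.3% of all genes tested. LARP7, which holds the elongation kinase in its inactive store, changed by -0.68. SUPT5H, a subunit of the pausing and elongation factor DSIF, changed by 0.54, and NELFB, of the negative elongation factor, by 0.40. Of the 12 genes of CTD phosphatases and polymerase assembly, 5 rose and 5 fell (83.3% called). The phosphatase CTDSP2 rose by 0.80, and RPAP2 (-0.57) and GPN3 (-0.42), which help to assemble or import the polymerase, fell.

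Members called higher lay in more crowded stretches of the genome than members called lower. The median number of protein-coding genes with a midpoint within 500 kb was 22 for members that rose, 10 for members that fell and 17 for those not called. Over all genes tested the medians were 16, 8 and 14. Across the 64 members the change correlated with that number at Spearman 0.42 and Pearson 0.43, beside 0.28 and 0.23 across 12216 genes. These are descriptions across genes that share the same 6 arrays. Of the 25 members with at most 10 neighbours, 2 rose and 15 fell. Decreases were also frequent among all genes there: 46.05% fell and 13% rose with at most 5 neighbours, and 42.07% fell and 15.32% rose with 6 to 10. POLR2A had 63 neighbours, the most of any member, and TAF7, which fell, had 59. With the trend on gene density removed, 38 of the 41 calls were kept, and the 3 lost were MED18 (0.19), TAF2 (-0.06) and GTF2A2 (-0.10).

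**Figure D4:**
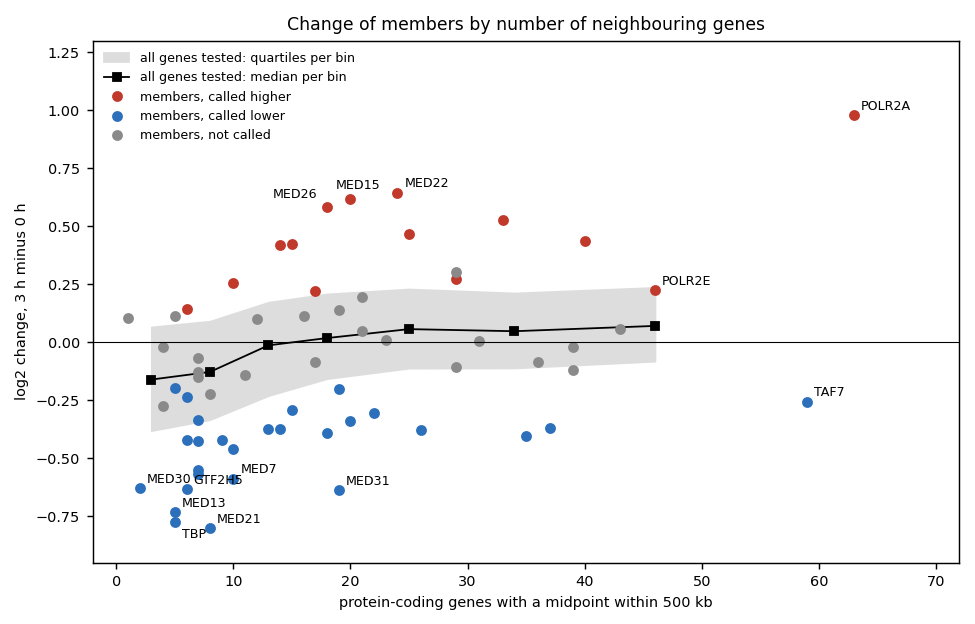
Log2 change (3 h minus 0 h, vertical axis) of the 64 tested members against the number of protein-coding genes with a midpoint within 500 kb (horizontal axis), coloured by call, over the median and quartiles of all genes tested in 7 bins of that number. Members with at most 10 neighbours lie mostly below 0 (15 called lower, 2 higher), as does the median of all genes in those bins (-0.16 and -0.13), and POLR2A, with 63, has the highest change.

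The promoter table held 54 of the 69 members, each as the same window of 250 bases. MED21, MED22, MED13 and MED30 are not among them. Median GC content was 59.6% for members that rose, 58.2% for those that fell and 56.6% for those not called, so the groups were close in base composition. Over all genes tested with a promoter the medians were 67.6%, 63.2% and 64.8%, in the same order. The tested members together had a median of 58.4%, below the 64.8% of all genes tested. The GC box (GGGCGG, both strands) was found in 55.6% of member promoters, beside 66.6% of the promoters of genes tested and 42.3% of all 27305 promoters. It occurs in POLR2A at 67 to 62 and at 52 to 47 bases before the start. The ETS-type motif (CCGGAAG, both strands) was found in 29.6% of member promoters, beside 15.3% of genes tested and 8.82% of all. Its 16 genes include MED15 (2 matches) and GTF2F1, which rose, and MED7, which fell. Of members with a promoter, it was found in 3 of 13 that rose, 5 of 18 that fell and 7 of 18 not called.

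The NRF1-type motif (both strands) was found in 18.5% of member promoters, 10.3% of genes tested and 5.53% of all. GTF2F2 holds it at 43 to 34 bases before the start. The CCAAT motif (both strands) was in 27.8% of member promoters, 34.7% of genes tested and 33% of all, and is seen in MED7 and TBP. The antioxidant response core (TGACNNNGC, both strands) was in 16.7% of member promoters, 12% of genes tested and 11% of all. Among members with a promoter, GTF2F1 holds it (1 of 13 that rose), as do TAF5, GTF2A2, GTF2F2 and GTF2H5 (4 of 18 that fell). MED13L, TAF11 and GTF2H3 hold it as well (3 of 18 not called). TATAAA on the gene's own strand was in 5.56% of member promoters, 4.13% of genes tested and 7.17% of all. In MED7 it begins 250 bases before the start, the far edge of the window. The remaining motifs were searched on both strands. The E box CACGTG was in 13% of member promoters, 8.83% of genes tested and 6.49% of all. The AP-1 motif TGANTCA was in 7.41%, 4.1% and 6.6%, in the same order. The cAMP element TGACGTCA was in 3.7%, 2.82% and 1.77%, and the YY1-type motif in 1.85%, 0.569% and 0.359%. A match describes letters in this window and is not a measured binding site.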

How the data were processed

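The deposited table holds log2 values for 49372 probe sets on 6 arrays, 3 per group. The log2 scale was read from the values. MAS5 and RMA appear in the submitters' processing notes with no role or order, and a genome build is not given in the sources used here. Labelling was with a 3′ IVT kit, per the labels' protocols. Probe sets were named by the platform annotation where it gives 1 symbol (44988). For each gene the brightest probe set was used, and genes under the 40th percentile (log2 4.64) were not tested. The groups were tested by limma 3.58.1 (lmFit, eBayes; R 4.3.3), with Benjamini-Hochberg adjustment over 12221 genes and a threshold of 0.05. Members and lists were chosen with earlier results of these data known. Values of every array are given for the 3 called members with the largest change in each role group and for members changed at least 1.5-fold. Of partners, up to 3 per list with the smallest p are named. MED26 and a few noisy members are also given by array, chosen after their values were seen. Neighbours and promoters come from RefSeq tables of GRCh38.p14, used for gene order and for the printed windows. Tested on simulated arrays of this comparison (12221 genes), the fit recovered 97 of 100 genes set to change by a log2 of 1 and 74 of 100 set to change by 0.5, and it also called 8 that were not changed. Only those genes were changed in the simulation, whereas 51.3% of genes were called in the data, so these rates need not hold here. Alternatives covered scaling, the floor, which probe set stands for a gene, variance moderation, array weights, the replicate block, stricter thresholds, gene density and leaving out each array. The number of arrays limits the precision.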

Additional observations from a re-analysis of the deposited data

Results flagged for a closer look

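Of 20 probe sets annotated jointly to a member and to other genes, which were assigned to no gene, 17 lay above the floor. Of these, 8 were lower and 2 higher on every 3 h array, and 7 overlapped. Among all genes tested, each by its brightest probe set, 35.7% were lower and 24.8% higher on every 3 h array. The lower joint probe sets are all 4 annotated to TAF9 and AK6 (log2 changes of -0.41 to -0.22), 3 of those annotated to POLR2M and GCOM1 (-0.44 to -0.38) and 1 annotated to GTF2H2 and its copies GTF2H2B, GTF2H2C and GTF2H2C_2 (-0.12). The 2 higher ones, signal outside the genes compared, lie beside others of the same annotation that differ. One GTF2H2 probe set had a log2 change of 0.27, and the remaining 2 stood at -0.04 and 0.01. One of those annotated to GTF2H4 and VARS2 had a log2 change of 0.19, and the other -0.17. Which of the named genes each probe set measures cannot be told from the annotation.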

How the results depend on the processing

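Over 20 alternatives, 14 of the 41 member calls were kept under every one that gave a value: MED22, MED26, MED15, MED29, GTF2F1 and POLR2A as higher, and MED7, MED21, MED30, TBP, GTF2B, GTF2E2, GTF2H5 and POLR2K as lower. Of these 14, 6 had only 1 probe set above the floor: MED22, MED7, MED30, GTF2B, GTF2E2 and GTF2H5. Their calls could therefore not be lost on another probe set above the floor. A further set of calls was lost only when a change had to exceed 1.2-fold in the test itself, so that 28 were kept under all the rest. With that minimum, 6 members were higher and 11 lower (Mediator 4 and 6, TFIID 0 and 1, with 2 higher at an unadjusted p under 0.05 by treat of limma, polymerase subunits 1 and 1, GTF2 lower 3). With the second brightest probe set, 4 GTF2 genes were lower, 4 Mediator genes were lower and 10 higher, the medians were -0.27 (GTF2), -0.019 (Mediator) and -0.18 (polymerase), 27 of 37 calls were kept, and the sign changed for MED18 (-0.15) and MED20 (0.15) and, among members not called on the brightest, for MED27 (0.28), TAF6L (0.26), TAF8 (-0.17), POLR2C (-0.19), TAF11 (0.02) and TAF10 (-0.07). Genes with only 1 probe set kept it in the second-brightest alternative, so their calls were not read on another probe set there. Of the Mediator genes lower in it, MED7, MED11 and MED30 are of this kind, and only MED21 was read on another probe set. Without shared or cross-hybridizing probe sets, 9 Mediator genes were lower and 9 higher. Calls that were higher made up 34.1% of member calls, 24.4% after median centring and 47.1% with the second probe set. The mean of all probe sets gave medians of -0.25 (GTF2) and -0.034 (Mediator) and turned TAF6L to 0.22. The mean of probe sets above the floor gave -0.12 (Mediator) and 0.035 (TFIID). The Mediator median was -0.19 after median centring and with the floor at the 60th percentile, and the GTF2 median was -0.34 with no floor, where more genes entered. The TFIID median turned negative after quantile normalization (-0.012), after median centring (-0.030), without shared or cross-hybridizing probe sets (-0.040), with the density trend removed (-0.053), without 0 h replicate 1 (-0.027) and without 3 h replicate 3 (-0.036), and was 0.024 with array weights. With the density trend removed the other medians were -0.30 (GTF2), -0.026 (Mediator) and -0.14 (polymerase). On leaving out each array, the Mediator median ran from -0.19 to -0.12 and the TFIID median from -0.036 to 0.053. The cause of these shifts was not tested. Same-numbered arrays did not deviate together (correlations of -0.04, -0.02 and -0.19), and differently numbered ones ran from -0.14 to 0.17. With 3 arrays per group, these values cannot tell whether the numbers mark a shared culture or day. With the replicate block, 39 of 41 calls were kept (TAF2 at -0.20 and TAF5L at 0.14 were lost, and MED1 at 0.19 was gained).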
